A study of Mus musculus with 6 samples.

Results

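Interferon response and immunoproteasome genes were described in whole testis of mice that lack TAp73, as a list of 43 genes chosen by name for being induced by interferons. Of the 43 genes, 41 had a probe on the array by accession, and 40 gave a tested probe and are called measured here, among 16947 measured genes in all. Mx1 and Mx2, antiviral GTPases, had no matched probe. Oas3, a synthase of the 2′-5′ oligoadenylate family, was well above background on 1 of 6 arrays and was not tested. The rule for the list names genes and uses no measured value, but the genes were chosen with earlier results of these data known.

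The study set 3 TAp73 knockout mice against 3 wild type mice, with 1 array for each mouse. TAp73 is the form of p73, a transcription factor of the p53 family, that carries its transactivation domain. The knockout animals were male C57BL/6J mice with the genotype TAp73 KO, aged 10 weeks, and the wild type animals were male mice of the same strain and age. The knockout is that of the whole animal as far as the labels say, and the deleted exons, the cells in which the gene was lost and the number of founders are not given in the sources used here. RNA of all testis cells was hybridised together, so fewer cells of a type and less RNA per cell cannot be told apart.

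Interferons bind receptors at the cell surface, and the receptors' Janus kinases activate STAT proteins and IRF9, which switch on genes that carry an interferon-stimulated response element (ISRE) or a gamma-activated site (GAS). The induced proteins sense viral nucleic acid, block viral entry or translation, and change the proteasome so that it makes peptides for class I molecules of the major histocompatibility complex. In mouse testis the pathway is known from virus infection of Sertoli, Leydig and germ cells and from macrophages of the interstitium.

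Signals are given on a linear scale in which 1000 is the 75th percentile of the array (scaled signal), and differences as log2 of knockout minus wild type with their standard error. A gene was called where its adjusted p fell under 0.05 in limma with Benjamini-Hochberg adjustment over all 31801 tested probes, and is represented by its brightest probe. Levels of different probes are not compared. On the 6 arrays 74.4% to 84.4% of probes were well above background and 1.57% to 4.45% of probes were saturated, none of them a probe of the 43 genes. Knockout replicate 1 stood apart, with a first component score of -66.2 in a principal component analysis and scores of -4.9 to 30.8 on the other arrays. The arrays lay on 2 slides, the first with knockout replicates 1 and 2 and wild type replicates 1 and 3, the second with knockout replicate 3 and wild type replicate 2.

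The scanner files and the deposited value table carried opposite labels, which were checked against Trp73. Its probe A_52_P193555 had a scaled signal of 3.33, 1.16 and 1.18 in the scanner files labelled knockout, against 106, 106 and 108 in those labelled wild type. It was lower in the knockout (adjusted p = 0.00369), and no exact fold is given because only 1 of the 3 knockout arrays read it well above background. The other 2 Trp73 probes fell by 3.21 (A_55_P1988133, adjusted p = 0.00213, well above background on 2 knockout arrays) and by 0.99 (A_52_P410636, adjusted p = 0.0104, well above background on all 3) on the log2 scale. Which of the probes lie in the deleted part is not known here. The labels of the scanner files were used throughout. In the deposited value table each scanner file matched a column of the opposite label (r = 0.968 to 0.994 over 31618 probes, against -0.40 to -0.27 with the column of its own label), so under that table's labels every direction below would be turned round.

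The promoters of 6 genes are printed as the letters behind the results. Those of Ifitm2, Ifitm3, Trim25 and Psmb8 belong to the 4 genes that were called, that of Tap1 is shared with the immunoproteasome gene Psmb9, and that of Isg15 is the textbook interferon promoter whose gene differed by 0.02 between the groups on the log2 scale. Each runs 5′ to 3′ on the strand of its gene, from 250 bases before the start to 50 bases after it, from RefSeq on GRCm38.p6, while the array was designed on build mm9. Capitals mark a match to the ISRE pattern (GAAANNGAAA, on the other strand TTTCNNTTTC) or to the GAS pattern (TTCNNNGAA, the same on both strands), where N is any base.
Ifitm2: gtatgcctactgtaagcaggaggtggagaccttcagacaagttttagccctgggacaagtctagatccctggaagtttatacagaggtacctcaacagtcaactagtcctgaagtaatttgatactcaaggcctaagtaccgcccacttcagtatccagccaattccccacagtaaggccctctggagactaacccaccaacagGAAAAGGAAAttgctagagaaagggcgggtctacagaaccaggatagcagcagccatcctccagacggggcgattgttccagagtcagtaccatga
Ifitm3: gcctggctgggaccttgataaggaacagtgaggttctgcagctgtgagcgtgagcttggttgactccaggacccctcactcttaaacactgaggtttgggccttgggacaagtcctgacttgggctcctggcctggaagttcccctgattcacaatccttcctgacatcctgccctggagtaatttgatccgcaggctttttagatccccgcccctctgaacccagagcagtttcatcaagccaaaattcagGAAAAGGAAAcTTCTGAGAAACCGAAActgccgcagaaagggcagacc
Trim25: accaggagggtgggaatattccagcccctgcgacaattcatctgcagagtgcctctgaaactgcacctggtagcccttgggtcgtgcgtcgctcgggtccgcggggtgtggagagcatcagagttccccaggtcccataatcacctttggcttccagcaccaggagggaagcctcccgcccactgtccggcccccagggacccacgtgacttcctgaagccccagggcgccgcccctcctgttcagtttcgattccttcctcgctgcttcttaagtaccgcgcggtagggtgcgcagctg
Psmb8: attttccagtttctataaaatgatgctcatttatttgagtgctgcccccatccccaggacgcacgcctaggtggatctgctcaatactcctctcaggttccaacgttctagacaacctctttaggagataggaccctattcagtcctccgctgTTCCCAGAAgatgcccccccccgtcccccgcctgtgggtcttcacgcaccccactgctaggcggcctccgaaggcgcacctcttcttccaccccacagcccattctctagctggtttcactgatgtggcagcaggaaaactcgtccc
Tap1: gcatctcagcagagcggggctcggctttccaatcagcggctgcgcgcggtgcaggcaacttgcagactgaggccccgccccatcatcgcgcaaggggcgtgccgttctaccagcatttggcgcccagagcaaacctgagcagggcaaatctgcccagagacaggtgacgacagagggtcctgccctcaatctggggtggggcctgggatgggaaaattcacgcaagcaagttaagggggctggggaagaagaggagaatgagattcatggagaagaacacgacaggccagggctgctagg
Isg15: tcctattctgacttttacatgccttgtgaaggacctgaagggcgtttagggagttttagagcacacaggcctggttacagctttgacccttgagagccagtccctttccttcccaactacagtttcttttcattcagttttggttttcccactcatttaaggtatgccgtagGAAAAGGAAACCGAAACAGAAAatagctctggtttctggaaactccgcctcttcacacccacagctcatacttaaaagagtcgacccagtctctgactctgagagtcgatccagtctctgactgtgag

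The Ifitm2 window (chr7:140955912-140956211, minus strand) held 1 ISRE match, whose first base lay at -46 from the start. The Ifitm3 window (chr7:141010695-141010994, minus strand) held 2 ISRE matches just after the start, and a GAS match that overlapped the second of them. The Trim25 window (chr11:88999153-88999452, plus strand) held neither pattern. The Psmb8 window (chr17:34197945-34198244, plus strand) held 1 GAS match at -97. The Tap1 window (chr17:34187306-34187605, plus strand) held neither pattern, and 275 of its bases are the opposite strand of the Psmb9 window. The Isg15 window (chr4:156200769-156201068, minus strand) held 3 ISRE matches that overlapped one another.

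RefSeq windows were found for 35 of the 43 genes. The ISRE pattern stood in 18 of the 35 (51.4%), against 1079 of 27025 genes with a window (3.99%). The GAS pattern stood in 10 of the 35 (28.6%), against 2582 of the 27025 genes (9.55%). A match is a description of letters and not a bound site.

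Across the 40 measured genes, 4 fell in TAp73 knockout testes, 0 rose and 36 were not called. The 4 were Ifitm2 and Ifitm3, membrane proteins that hinder the entry of viruses, Trim25, a ubiquitin ligase of virus sensing, and Psmb8, a catalytic subunit of the immunoproteasome. The 4 lower calls were 10.0% of the 40, against 598 of the 16947 measured genes (3.53%), and higher calls made up 0.218% of all measured genes. At an unadjusted limma p under 0.05, 21 of the 40 were lower (52.5%, against 13.6% of all measured genes) and 1 was higher (against 12.0%). All 3 knockout arrays lay below all 3 wild type arrays for 22 of the 40 (55.0%, against 16.0% of all measured genes) and above them for 2, Dhx58 and Oasl1 (against 19.2%). The groups overlapped for the other 16 genes. These shares are descriptions of a list that was not chosen blind to these data.

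The log2 difference was negative for 33 of the 40 genes (82.5%, against 42.2% of all measured genes). Under normexp background correction it was negative for 20 of the 40 (against 23.9% of all measured genes), at a median of 0.0008 over the 40 and 0.16 over all measured genes, and 3 of the 40 were lower at an unadjusted p under 0.05. As reported, its median was -0.30 over the 40, with a range of -0.83 to 0.41, against a median of 0.05 over all measured genes. Set against the wild type mean, the median over the 40 genes was -0.27, -0.35 and -0.31 in knockout replicates 1 to 3, against -0.05, 0.02 and 0.02 in wild type replicates 1 to 3. Every knockout array had a lower median than every wild type array. Below the wild type mean of the gene lay 28, 35 and 34 of the 40 genes in the knockout arrays, against 29, 18 and 18 in the wild type arrays, so wild type replicate 1 had about as many genes below the mean as knockout replicate 1. The median was -0.30 on slide 1 and -0.35 in the pair on slide 2.

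**Figure D1:**
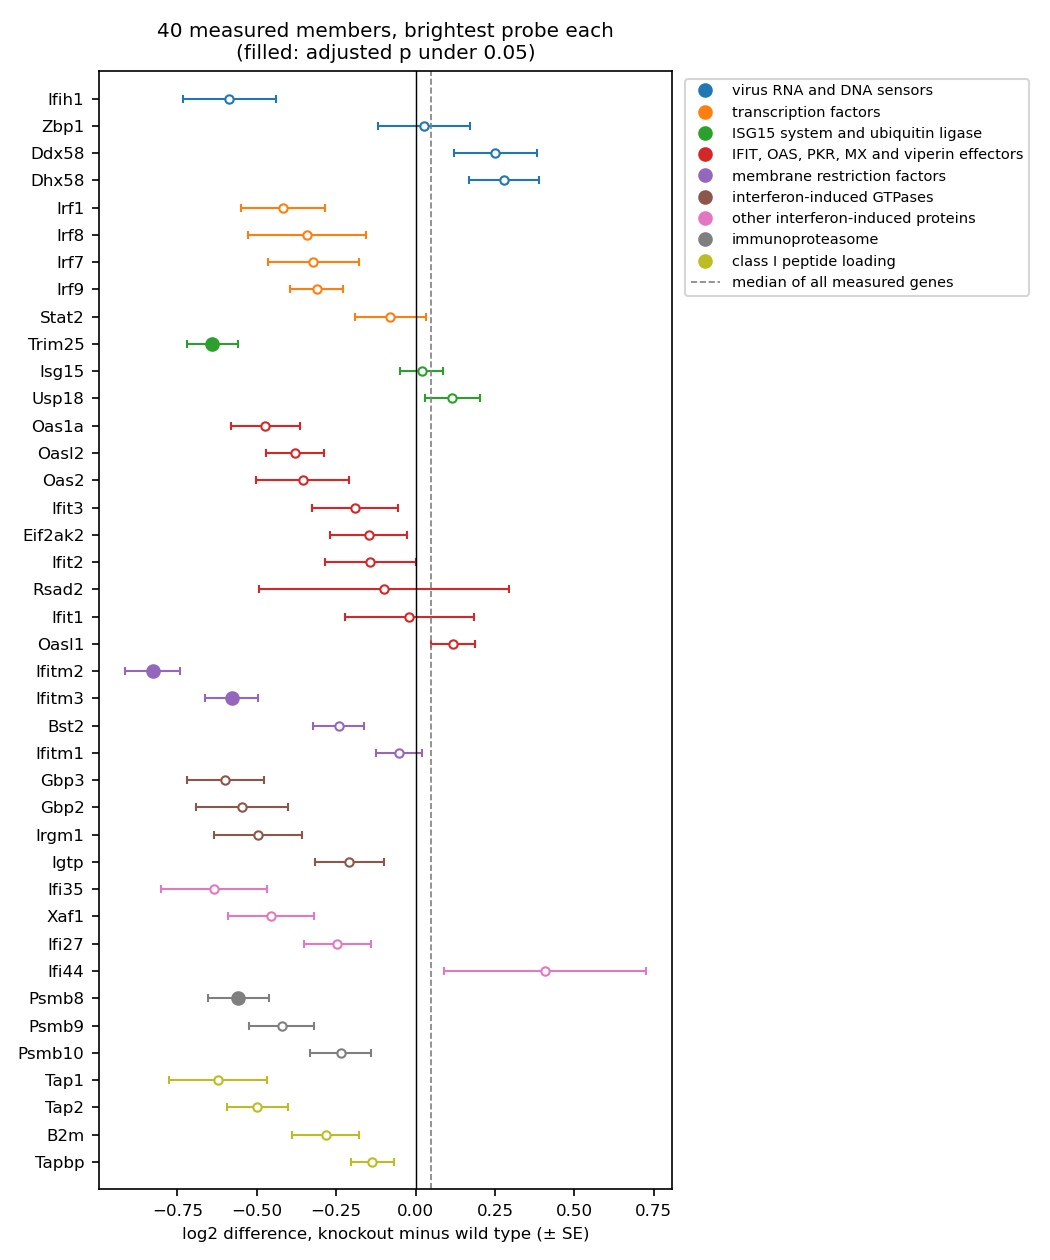
Log2 difference of knockout minus wild type testes for the brightest probe of each of the 40 measured genes, coloured by role; bars are the standard error from limma with 3 arrays in each group. The filled points are Ifitm2 (-0.83), Trim25 (-0.64), Ifitm3 (-0.58) and Psmb8 (-0.56), and the dashed line is the median of all measured genes (0.05).

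Among the membrane proteins that restrict viruses, 2 of 4 fell, and the median was -0.41. Ifitm2 (probe A_55_P1998578) encodes an interferon-induced transmembrane protein of late endosomes. It had a scaled signal of 422, 385 and 407 in the knockout testes, against 695, 785 and 678 in the wild type testes. All knockout values lay well below all wild type values, and the means were 405 ± 18.2 in knockout and 720 ± 57.7 in wild type testes (SD, n = 3 each). Ifitm2 fell by 0.83 on the log2 scale (SE 0.09, adjusted p = 0.0116), the largest fall among the 40 genes. Ifitm3 (probe A_51_P128876), its close relative and the best studied barrier to influenza virus entry, read 617, 619 and 702 in the knockout testes, against 953, 932 and 1007 in the wild type testes. The groups were separate, with means of 646 ± 49.0 in knockout and 964 ± 38.7 in wild type testes (SD, n = 3 each), and Ifitm3 fell by 0.58 (SE 0.08, adjusted p = 0.0268).

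Bst2, the tether that holds budding virus at the cell surface, read 429, 455 and 411 in the knockout testes, against 479, 531 and 523 in the wild type testes. The knockout arrays were all lower, but the difference of -0.24 was not called (adjusted p = 0.16). Ifitm1 lies between Ifitm2 and Ifitm3 among the measured genes of chromosome 7. It read 406, 414 and 386 in the knockout testes, against 429, 397 and 424 in the wild type testes, groups that overlapped. Its difference was -0.05 (adjusted p = 0.674), and it turned to 0.01 with median scaling and 0.04 under normexp background correction. A test of Ifitm1 against its neighbours was not run.

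The calls on the Ifitm genes were lost in some or all fits with 1 array left out, and that on Ifitm3 also with slide as a term. Over all tested probes, 116 to 420 were called lower with 1 array left out, against 838 with all 6. A lost call therefore does not single out the array left out. Ifitm2 was no longer called without knockout replicate 2 (adjusted p = 0.062), knockout replicate 3 (0.0616) or wild type replicate 2 (0.0569), at differences of -0.87 to -0.76 over the 6 omissions. Ifitm3 was no longer called whichever of the 6 arrays was left out (adjusted p = 0.0646 to 0.111, at -0.64 to -0.55). With slide as a block the adjusted p was 0.0353 for Ifitm2, which stayed called, and 0.0664 for Ifitm3. On slide 1 alone, with 2 arrays a group and 0 calls over all probes, the differences were -0.77 for Ifitm2 (adjusted p = 0.269) and -0.67 for Ifitm3 (adjusted p = 0.281), and in the slide 2 pair they were -0.95 for Ifitm2 and -0.41 for Ifitm3.

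Of the ISG15 system, 1 of 3 genes fell. Trim25 (probe A_55_P2098071) adds ubiquitin and ISG15 to proteins and acts with the RNA sensor RIG-I. It read 872, 787 and 785 in the knockout testes, against 1266, 1327 and 1213 in the wild type testes. The groups did not overlap, with means of 815 ± 49.6 in knockout and 1269 ± 57.1 in wild type testes (SD, n = 3 each). Trim25 fell by 0.64 (SE 0.08, adjusted p = 0.018).

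The Trim25 call held without knockout replicate 1 (adjusted p = 0.0334). It was lost without knockout replicate 2, knockout replicate 3, wild type replicate 1, wild type replicate 2 or wild type replicate 3 (adjusted p = 0.0548 to 0.0971). With slide as a block the adjusted p was 0.0546. The difference was -0.58 on slide 1 (adjusted p = 0.35) and -0.76 in the slide 2 pair.

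Isg15, the ubiquitin-like protein that interferon induces most widely, read 211, 202 and 213 in the knockout testes, against 204, 202 and 212 in the wild type testes. The arrays of both groups covered the same range, at a difference of 0.02 (SE 0.07, adjusted p = 0.873). Its second tested probe differed by 0.07 (adjusted p = 0.774). Usp18, the protease that removes ISG15 and damps receptor signalling, read 50.8, 49.2 and 52.5 in the knockout testes, against 45.4, 51.5 and 44.1 in the wild type testes. The groups overlapped, at 0.12 (adjusted p = 0.429). Isg15 lies on chromosome 4, 50 measured genes from Trp73.

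The 3 immunoproteasome genes encode the catalytic subunits that replace those of the standard proteasome under interferon gamma. Psmb8 fell, and for all 3 every knockout array lay below every wild type array, at a median difference of -0.42. Psmb8 (probe A_51_P345367) read 83.9, 94.4 and 97.0 in the knockout testes, against 129, 129 and 147 in the wild type testes. Its means were 91.8 ± 6.93 in knockout and 135 ± 10.6 in wild type testes (SD, n = 3 each), and it fell by 0.56 (SE 0.10, adjusted p = 0.0414). Psmb9 read 76.2, 87.5 and 86.8 in the knockout testes, against 104.4, 107.1 and 124.5 in the wild type testes, a difference of -0.42 that was not called (adjusted p = 0.0922). Psmb10, the subunit encoded outside the class II region, read 883, 1053 and 966 in the knockout testes, against 1057, 1144 and 1214 in the wild type testes. The highest knockout value lay just under the lowest wild type value, and the difference of -0.24 was not called (adjusted p = 0.215).

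The Psmb8 call was lost whichever of the 6 arrays was left out (adjusted p = 0.0805 to 0.143, at -0.60 to -0.49). With slide as a block the adjusted p was 0.0918. The difference was -0.63 on slide 1 (adjusted p = 0.369) and -0.42 in the slide 2 pair. Under normexp background correction it was -0.21 (adjusted p = 0.561).

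The standard subunits that these genes replace were not called, and the size of their differences depended on the scaling. Psmb5, the counterpart of Psmb8, differed by 0.23 (adjusted p = 0.207), Psmb6, the counterpart of Psmb9, by 0.26 (adjusted p = 0.243), and Psmb7, the counterpart of Psmb10, by 0.14 (adjusted p = 0.4). Under quantile normalization the differences were 0.0009 for Psmb5, 0.0079 for Psmb6 and 0.04 for Psmb7. The Psmb5 probe was saturated on 3 arrays and the Psmb6 probe on 5. A saturated spot reads higher on an array with a lower 75th percentile, which was lower by 0.26 on the log2 scale in knockout arrays as a group mean. The part of this in the differences was not tested. Of the 20 measured genes of the standard proteasome and its activators, 0 fell and 0 rose (limma; unadjusted p under 0.05 in 2 that were lower and 2 that were higher), at a median of 0.06. Psme2, a subunit of the interferon-induced activator PA28, had the smallest p of that list and differed by -0.31 (adjusted p = 0.129).

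**Figure D2:**
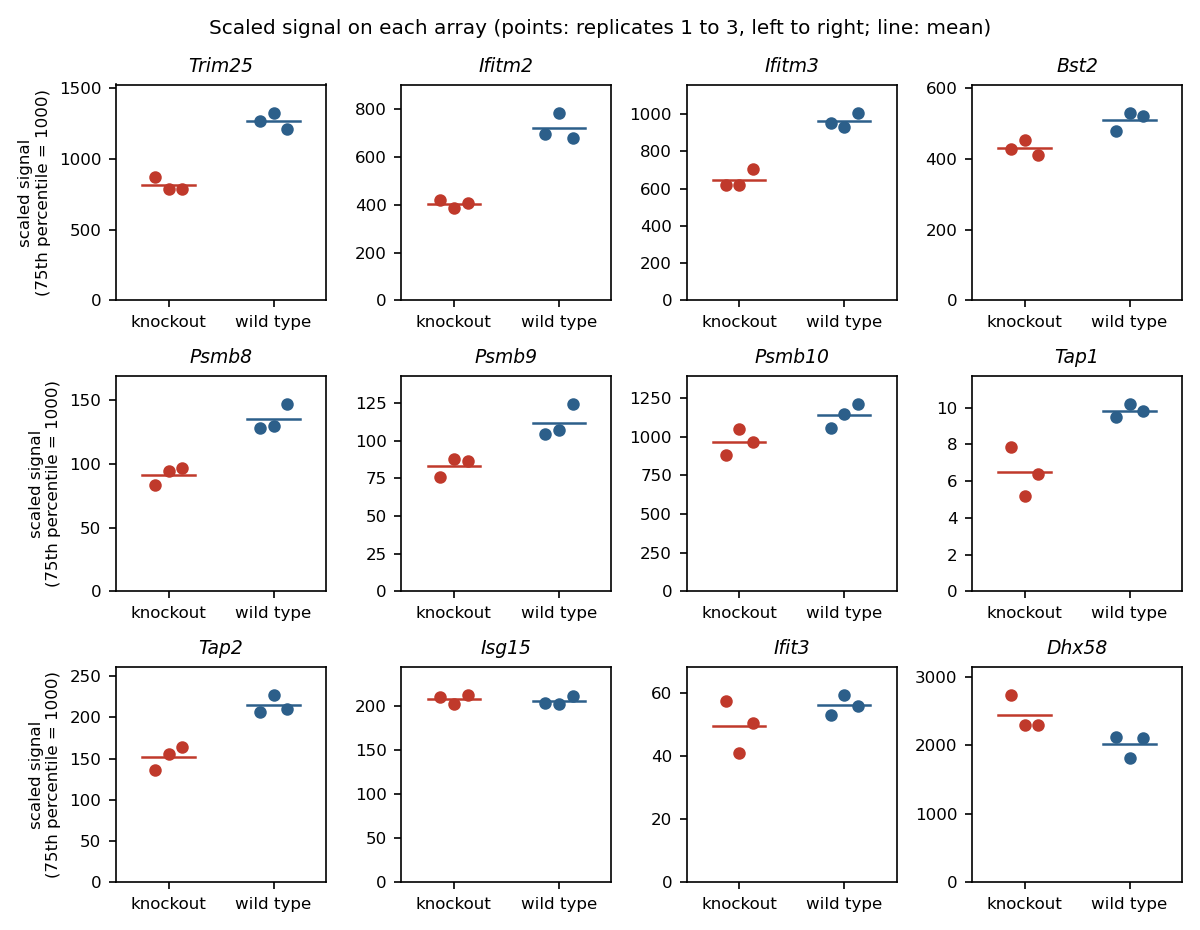
Scaled signal of 12 genes on each of the 6 arrays, on linear axes that start at 0; red points are knockout testes, blue points wild type testes, and lines are group means. The red and blue points are apart for Trim25, Ifitm2, Ifitm3, Bst2, Psmb8, Psmb9, Tap1, Tap2 and Dhx58, with red above blue for Dhx58. They overlap for Isg15 and Ifit3. For Psmb10 the highest red point (1053) and the lowest blue point (1057) lie at almost the same height.

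The 4 genes of class I peptide loading had no call (limma; 3 were lower at an unadjusted p under 0.05), although all knockout arrays lay below all wild type arrays for each of them, at a median of -0.39. Tap1 and Tap2 form the transporter that carries peptides into the endoplasmic reticulum. Tap2 read 136, 156 and 164 in the knockout testes, against 206, 227 and 210 in the wild type testes, a difference of -0.50 (SE 0.10, adjusted p = 0.0557). Tap1 was dim and was well above background on 4 of 6 arrays. It read 7.86, 5.17 and 6.39 in the knockout testes, against 9.47, 10.2 and 9.78 in the wild type testes, a difference of -0.62 (adjusted p = 0.096) that turned to 0.61 under normexp background correction (adjusted p = 0.584). B2m, the light chain of every class I molecule, read 1820, 2027 and 1918 in the knockout testes, against 2138, 2236 and 2661 in the wild type testes, a difference of -0.28 (adjusted p = 0.192). The 4 differences went the same way, but none reached the threshold. Psmb9, Tap1, Psmb8 and Tap2 are 4 consecutive measured genes of chromosome 17.

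Of 9 other measured genes of class I presentation, 1 fell (11.1%, against 3.53% of all measured genes). It was H2-M3, a class I molecule that presents formylated peptides, which read 50.5, 51.2 and 51.8 in the knockout testes, against 68.5, 66.8 and 72.0 in the wild type testes. The groups were separate, at -0.43 (adjusted p = 0.0331). The call was lost whichever of the 6 arrays was left out (adjusted p = 0.0756 to 0.124), and the difference was 0.12 under normexp. The median of the 9 was -0.10. All knockout arrays lay below all wild type arrays for 5 of the 9 (55.6%, against 16.0% of all measured genes). They lay above them for 2 (22.2%, against 19.2%). At an unadjusted limma p under 0.05, 3 of the 9 were lower (33.3%, against 13.6%) and 1 was higher (11.1%, against 12.0%). Nlrc5 had the largest positive difference, at 0.36 (adjusted p = 0.0777).

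The 4 sensors of foreign nucleic acid had no call (limma; 1 lower and 1 higher with an unadjusted p under 0.05) and differences of both signs, at a median of 0.14. Ifih1, the sensor of long double-stranded RNA, read 61.1, 54.0 and 51.9 in the knockout testes, against 101, 80.5 and 70.9 in the wild type testes, a difference of -0.59 (adjusted p = 0.0978). Dhx58, a relative that tunes the other RNA sensors, read 2739, 2291 and 2302 in the knockout testes, against 2117, 1814 and 2110 in the wild type testes, a difference of 0.28 (adjusted p = 0.205). All knockout arrays were thus lower for Ifih1 and higher for Dhx58. Ddx58, which encodes RIG-I, read 236, 217 and 273 in the knockout testes, against 178, 230 and 202 in the wild type testes. Its groups overlapped, at 0.25 (adjusted p = 0.285). Of 16 measured genes that act upstream of interferon, 1 fell (6.25%, against 3.53% of all measured genes) and 0 rose, at a median of -0.16. All knockout arrays lay below all wild type arrays for 6 of the 16 (37.5%, against 16.0%) and above them for 0 (against 19.2%). The gene that fell was Mavs, the mitochondrial adaptor of the RNA sensors. Mavs read 534, 512 and 512 in the knockout testes, against 668, 743 and 716 in the wild type testes, at -0.45 (adjusted p = 0.0375), a call that was lost whichever of the 6 arrays was left out (adjusted p = 0.062 to 0.154).

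The 5 transcription factors had no call (limma; 2 were lower at an unadjusted p under 0.05) and 5 negative differences, at a median of -0.32. Irf9 is the DNA-binding part of the complex that reads the ISRE. It read 160, 153 and 159 in the knockout testes, against 179, 209 and 198 in the wild type testes, a difference of -0.31 (adjusted p = 0.108). Irf1, an activator of class I and immunoproteasome genes, read 260, 242 and 230 in the knockout testes, against 277, 323 and 385 in the wild type testes, a difference of -0.42 (adjusted p = 0.149). The groups did not overlap for these 2 factors. Irf7, the amplifier of type I interferon production, was dim, at 15.9, 11.7 and 12.6 in the knockout testes, against 17.8, 14.7 and 17.5 in the wild type testes. Its groups overlapped, at -0.32 (adjusted p = 0.235), and the difference was 0.52 under normexp (adjusted p = 0.591). The remaining factors, Irf8 and Stat2, had overlapping groups.

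The interferon-induced GTPases guard vacuoles that hold microbes. None of the 4 was called (limma; 3 were lower at an unadjusted p under 0.05). All 4 differences were negative, at a median of -0.52, the lowest of the 9 role groups. Gbp3 read 80.6, 85.3 and 73.5 in the knockout testes, against 106.8, 117.7 and 139.8 in the wild type testes, a difference of -0.60 (SE 0.12, adjusted p = 0.0619). Gbp2 read 80.2, 73.4 and 63.8 in the knockout testes, against 92.6, 100 and 126 in the wild type testes, a difference of -0.55 (adjusted p = 0.107). Irgm1 read 83.2, 83.4 and 81.9 in the knockout testes, against 97.5, 115 and 142 in the wild type testes, a difference of -0.50 (adjusted p = 0.119), and its second tested probe differed by -0.61 (adjusted p = 0.0697). All 3 genes had every knockout array below every wild type array, with more spread among the wild type arrays. Under normexp background correction the 3 differences shrank to -0.23 for Gbp3, -0.15 for Gbp2 and -0.03 for Irgm1. Gbp3 and Gbp2 are neighbours among the measured genes of chromosome 3. The Gbp and Ifitm genes are families of close relatives, and cross-hybridisation between their probes was not tested.

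Of the effectors that degrade or block viral RNA, 9 of 12 were measured and none was called (limma; 3 were lower at an unadjusted p under 0.05), at a median of -0.15. Oas1a, an activator of RNase L, read 41.0, 33.0 and 36.1 in the knockout testes, against 54.8, 50.5 and 47.2 in the wild type testes, a difference of -0.47 (adjusted p = 0.081). Oasl2, an OAS-like protein, read 212, 181 and 204 in the knockout testes, against 248, 277 and 251 in the wild type testes, a difference of -0.38 (adjusted p = 0.0899). These 2 genes had separate groups. Oas2 read 28.4, 30.2 and 34.2 in the knockout testes, against 39.0, 47.2 and 33.3 in the wild type testes, overlapping at -0.36 (adjusted p = 0.215). The untested Oas3 read 20.6, 2.47 and 1.82 in the knockout testes, against 3.61, 1.46 and 1.28 in the wild type testes, and knockout replicate 1 alone was well above background. The classical reporters of an interferon response, Ifit1, Ifit2, Ifit3 and Rsad2, had overlapping groups. Ifit1 and Rsad2 were well above background on only 2 arrays of each group, and Ifit2 on 3 knockout and 2 wild type arrays. The overlap of these dim probes therefore says little. Ifit3 read 57.7, 41.1 and 50.5 in the knockout testes, against 53.3, 59.6 and 56.0 in the wild type testes (-0.19, adjusted p = 0.411; 0.21 under normexp), and was chosen after its values were seen.

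Of the 4 other interferon-induced proteins none was called (limma; 2 were lower at an unadjusted p under 0.05), at a median of -0.35. Ifi35, an interferon-induced leucine zipper protein, read 81.8, 57.3 and 76.2 in the knockout testes, against 111, 126 and 95.4 in the wild type testes, a difference of -0.63 (adjusted p = 0.106). Xaf1, a factor that favours apoptosis, read 118, 126 and 136 in the knockout testes, against 167, 208 and 150 in the wild type testes, a difference of -0.45 (adjusted p = 0.132). Ifi27, a small mitochondrial protein, differed by -0.25 (adjusted p = 0.228). The knockout arrays were all lower for these 3 genes. The second Xaf1 probe went the other way, at 7.18, 8.12 and 32.5 in the knockout testes, against 6.61, 6.87 and 8.59 in the wild type testes. That difference of 0.76 (adjusted p = 0.434) came from knockout replicate 3 alone. Of the 6 genes with several tested probes, Xaf1 was the exception to a shared sign.

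The 13 measured genes given here by their counts ranged from -0.34 to 0.41, with a median of -0.10. They were Zbp1, Irf8, Stat2, Ifit1, Ifit2, Ifit3, Oasl1, Eif2ak2, Rsad2, Ifitm1, Igtp, Ifi44 and Tapbp. None was called (limma; 0 at an unadjusted p under 0.05 in either direction), 10 had a negative difference, and the groups overlapped for 11.

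Negative differences were about as frequent with an ISRE match in the promoter window as without one. Of 17 measured genes with an ISRE match, 15 had a negative difference, 9 had every knockout array below every wild type array, and the median was -0.24. Of 17 with a window and no ISRE match, 15 had a negative difference, 11 were separate and lower, and the median was -0.34. With a GAS match, 10 of 10 were negative at a median of -0.38, against 20 of 24 without a match at a median of -0.30.

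**Figure D3:**
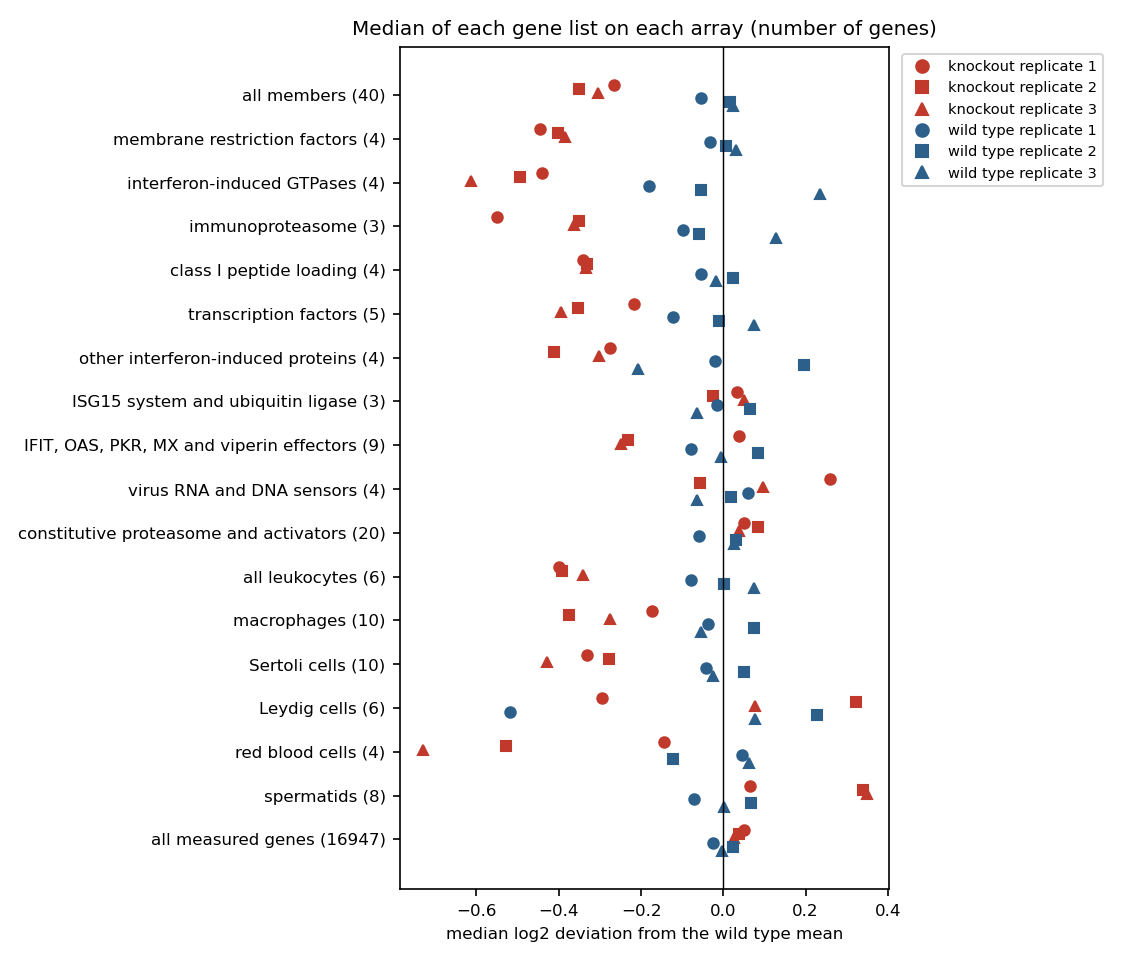
Median over each gene list of the log2 deviation from the wild type mean, for each of the 6 arrays; the number of genes is in brackets, red symbols are knockout testes and blue symbols wild type testes. The 3 knockout arrays lie below the 3 wild type arrays for all 40 genes (-0.27, -0.35 and -0.31), membrane restriction factors, GTPases, immunoproteasome and peptide loading genes, transcription factors and other interferon-induced proteins, and also for leukocyte, macrophage, Sertoli cell and red blood cell markers.

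Of 21 interferon ligand genes 16 had a probe and 12 were measured, of which 0 were called in either direction (limma; unadjusted p under 0.05 in 0 that were lower and 0 that were higher), at a median of 0.09. Ifnb1 and Ifng, the main type I and type II interferons, were not well above background on any array, and neither were Ifna4 and Ifne. Ifna5, well above background on all 6 arrays, had the smallest p of the ligands, at 0.16 (adjusted p = 0.252).

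Of 15 receptor and JAK-STAT genes, 3 fell (20.0%, against 3.53% of all measured genes) and 0 rose, at a median of -0.12. Il10rb, a receptor chain shared by interferon lambda and interleukin 10, read 251, 281 and 251 in the knockout testes, against 439, 434 and 543 in the wild type testes, at -0.85 (adjusted p = 0.0209). Ifnar2, a chain of the type I receptor, read 332, 300 and 297 in the knockout testes, against 473, 433 and 405 in the wild type testes, at -0.50 (adjusted p = 0.0492). Jak2, a kinase of the interferon gamma receptor, read 280, 269 and 250 in the knockout testes, against 349, 362 and 378 in the wild type testes, at -0.45 (adjusted p = 0.0446). The groups were separate for all 3 genes. The Jak2 and Ifnar2 calls were lost whichever array was left out (adjusted p = 0.0687 to 0.167 for Jak2 and 0.0683 to 0.175 for Ifnar2), and that of Il10rb without knockout replicates 1, 2 or 3 or wild type replicate 2 (adjusted p up to 0.0975). A further 39 interferon-induced genes outside the list had 0 calls and a median of -0.13. At an unadjusted limma p under 0.05, 16 of the 39 were lower (41.0%, against 13.6% of all measured genes) and 3 were higher (7.69%, against 12.0%). Trim30a was the nearest to a call among them (-0.56, adjusted p = 0.0659, and 0.31 under normexp).

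Some markers of white blood cells were lower in the same knockout arrays, and their part in the interferon gene differences was not tested. Of 6 markers of all leukocytes, 2 fell, Lcp1 (-1.38, adjusted p = 0.00369) and Coro1a (-0.55, adjusted p = 0.0199), at a median of -0.38. Of the 6, 4 had a negative difference and 2 a positive one, 1 of the latter at an unadjusted limma p under 0.05. The summed scaled signal of the 6 was 2265 to 2681 in the knockout testes, against 2528 to 2593 in the wild type testes, so the sums overlapped. Of 10 macrophage markers 1 fell, C1qc (-0.72, adjusted p = 0.0198), at a median of -0.28 and sums of 17707 to 21935 in the knockout testes, against 17160 to 18375 in the wild type testes. The difference was negative for 7 of the 10 and positive for 3. Of 4 measured dendritic cell markers Itgax fell (-1.93, adjusted p = 0.00369) and Flt3 rose (0.54, adjusted p = 0.0348), while Cd209a, Xcr1 and Clec9a were not well above background on any array. Lcp1 and Itgax stayed called whichever array was left out (adjusted p up to 0.0317 for Lcp1 and 0.0316 for Itgax). C1qc and Coro1a stayed called only without wild type replicate 1 (adjusted p = 0.0358 for C1qc and 0.0465 for Coro1a; up to 0.106 and 0.108 without another array), and Flt3 was lost in every case (adjusted p = 0.0708 to 0.148). No T or NK cell marker of 8 was called (limma, with an unadjusted p under 0.05 in 0 that were lower and 1 that was higher), at a median of 0.15. The difference was negative for 2 of the 8 and positive for 6. Cd3g, Cd8a and Ncr1 were not well above background on any array. No B cell marker of 5 was called (limma, with an unadjusted p under 0.05 in 1 that was lower and 1 that was higher), at a median of 0.06. No neutrophil marker of 3 was called (limma, with 0 at an unadjusted p under 0.05), at a median of 0.21.

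Markers of the testis's own cells were measured in both groups. Of 10 Sertoli cell markers 2 fell, Sox9 (-0.64, adjusted p = 0.0186) and Aard (-0.44, adjusted p = 0.0401), at a median of -0.38 and sums of 30088 to 33374 in the knockout testes, against 34936 to 38986 in the wild type testes. Of 6 Leydig cell markers 1 fell, Hsd3b1 (-0.76, adjusted p = 0.0369), and 0 rose, at a median of -0.20 and a range of -0.76 to 0.63. For 2 of the 6 all knockout arrays lay above all wild type arrays (1 of them at an unadjusted p under 0.05), and the sums overlapped, at 12800 to 23103 in the knockout testes, against 17484 to 28492 in the wild type testes. With 1 array left out, Sox9 stayed called only without knockout replicate 1 (adjusted p = 0.0447, and up to 0.095 without another), Hsd3b1 only without wild type replicate 1 (0.0499, and up to 0.154), and Aard in no case (0.0639 to 0.16). The 8 spermatid markers had a median of 0.26 and the 6 spermatocyte markers one of 0.21, with 0 calls in each (limma; unadjusted p under 0.05 in 4 spermatid and 3 spermatocyte markers, all higher). Endothelial markers had a median of -0.01 over 7 genes and 0 calls (limma; unadjusted p under 0.05 in 1 that was lower and 0 that were higher). Of 4 measured red blood cell markers 0 were called (limma; unadjusted p under 0.05 in 2 that were lower and 0 that were higher), all 4 had a negative difference, and the median was -0.43. Their median deviation from the wild type mean was -0.14, -0.53 and -0.73 in the knockout arrays, against 0.05, -0.12 and 0.06 in the wild type arrays. The groups overlapped for each of the 4, and the sums were 3894 to 6660 in the knockout testes, against 6022 to 8142 in the wild type testes. The part of Sertoli, Leydig, germ and red blood cells in the interferon gene differences was not tested.

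**Figure D4:**
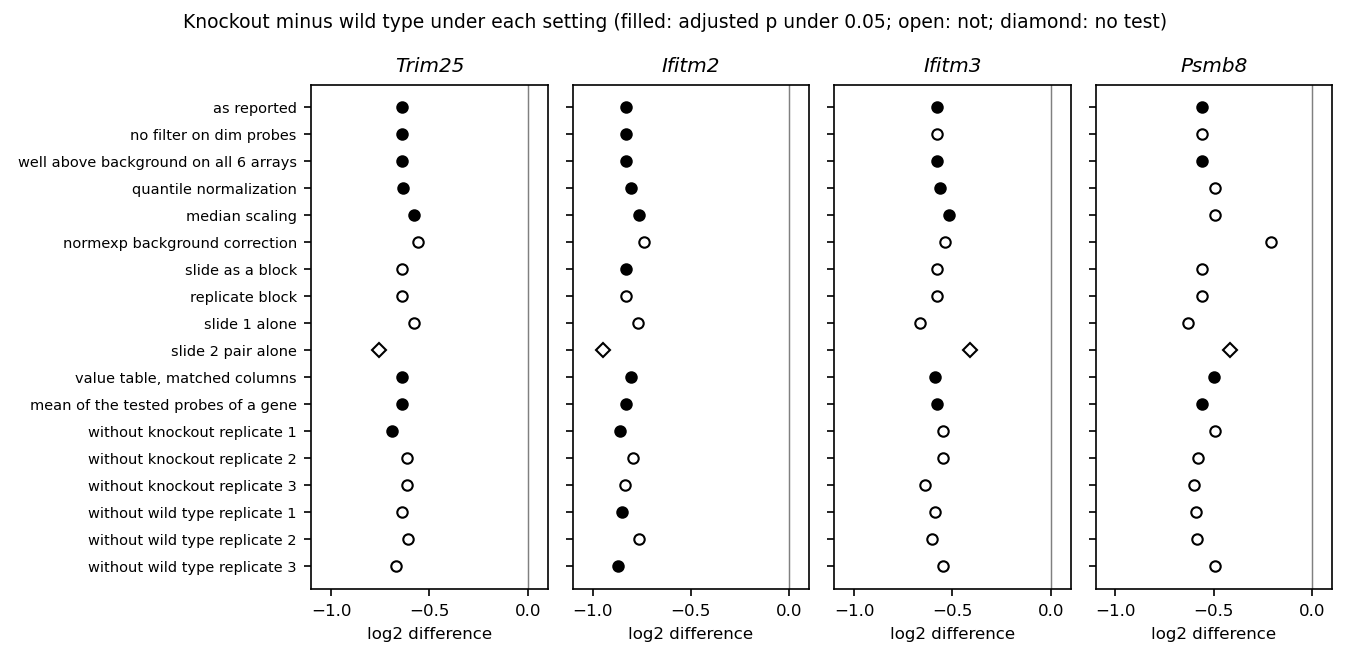
Log2 difference of knockout minus wild type for the 4 called genes under each processing alternative; filled circles have an adjusted p under 0.05, open circles do not, and the diamond is the slide 2 pair, which has no test. Every point lies below 0. All 4 genes are filled as reported, with the filter on all 6 arrays, in the matched columns of the value table and with the mean of a gene's probes. All 4 are open under normexp, with a replicate block and on slide 1 alone. They are also all open without knockout replicate 2, knockout replicate 3 or wild type replicate 2.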

How the data were processed

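Whole testis RNA of 6 mice was measured on 1-colour Agilent arrays. The deposited scanner files hold linear spot intensity, and per the file headers they come from Feature Extraction 10.7.3.1. Its background-subtracted processed signal was the column used. A value table of linear probe intensity was also deposited by the authors, and how it was normalized is not stated in its header or in the labels. The submitters' processing notes name limma without a version.

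Control spots (1377 of 44397) and 163 to 280 outlier spots per array were left out, and saturated spots were kept. Log2 signals of the spots of each probe were averaged, and the 75th percentile of the array was taken off. Testing required at least 3 of 6 arrays well above background and at least 2 values a group. Probes were named by unversioned accession from RefSeq on GRCm38.p6 (26055 of 39429 probes, 19751 symbols, 13374 unnamed), and the brightest probe with values on all arrays stands for its gene. Groups were compared two-sided with lmFit and eBayes of limma 3.58.1 (R 4.3.3), with group as the only term. The procedure was run on simulated arrays with known changes and independent noise. Those arrays held no slide effect and no outlying array, so that run says nothing about either in these data. With 3 mice a group the number of arrays limits the precision. Per the labels each array is that of 1 mouse.

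The genes and lists were chosen with earlier results of these data known. Named were every called gene and, in each of 9 role groups, those with the smallest p until 3 were named. In other lists up to 4 called genes were named, or the 1 with the smallest p. The 18 alternatives left out each array in turn, or changed the filter on dim probes, the scaling, the background correction, the slide or replicate block, the source file or the choice of probe. Mean spot signals were not in the scanner files, so normexp (offset 50) used median spot and background signals in place of the mean signals planned.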

Additional observations from a re-analysis of the deposited data

How the results depend on the processing

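Among the 40 interferon and immunoproteasome genes, 4 were called lower and 0 higher. Lower calls numbered 2 with no filter on dim probes, where 41 genes were measured, and 1 with slide as a block. They numbered 0 on slide 1 alone (limma; unadjusted p under 0.05 in 10 lower and 0 higher genes), 0 under normexp (3 and 1), and 0 to 2 when 1 array was left out. With probes well above background on all 6 arrays, 35 of the genes were measured and 6 were called lower. Gbp3 (adjusted p = 0.044) and Tap2 (adjusted p = 0.0402) were added there. Lower calls numbered 3 with quantile normalization or median scaling and 4 without genes saturated on any array. They numbered 5 in the matched columns of the value table, 6 with the mean of a gene's probes and 0 with a replicate block. No setting gave a higher call. The median of -0.30 was -0.23 with median scaling, -0.35 in the slide 2 pair, -0.35 to -0.25 with 1 array left out, and 0.0008 under normexp, where 20 of the 40 differences were negative. Median scaling and normexp moved the median of all measured genes to 0.11 and 0.16, and under normexp 24 of the 40 genes stayed below that median. Normexp also turned Irf7 to 0.52, Oas1a to 0.16, Oas2 to 0.26, Psmb9 to 0.062, Tap1 to 0.61, Ifit3 to 0.21, Ifitm1 to 0.036, and, outside the list, H2-M3 to 0.12 and Trim30a to 0.31. Ifitm1 was 0.010 with median scaling, Isg15 was -0.0087 on slide 1, and Xaf1 was 0.15 as the mean of its probes. The causes were not tested. Over all tested probes, 838 were lower and 79 higher; the counts were 349 and 13 with no filter, 299 and 15 with slide as a block, 0 and 0 under normexp and on slide 1, and 116 to 420 and 7 to 28 with 1 array left out. Lower and higher calls were 1109 and 165 with the all-array filter and 868 and 217 under quantile normalization. They were 569 and 143 with median scaling and 876 and 216 in the matched columns of the value table. Arrays of the same replicate number did not vary together: their deviations from the mean of their group correlated at -0.03, -0.08 and -0.09. With 3 arrays a group these correlations cannot show whether the mice were paired. With a replicate block 9 probes were lower and 1 higher, and 0 of the 40 genes were called (limma; unadjusted p under 0.05 in 21 lower and 1 higher). Dim probes limit the smallest differences, since Tap1, Ifit1 and Rsad2 were well above background on 4 of 6 arrays.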
